A study of Mus musculus with 6 samples.

Results

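The 10 genes described here encode chemokines of the CXC and CX3C families: Cxcl1, Cxcl5, Cxcl9, Cxcl10, Cxcl12, Cxcl13, Cxcl14, Cxcl16, Pf4 and Cx3cl1. They were taken by their symbols from a table of 33924 genes that compares RPE/choroid of aged and young mice, and all 10 symbols were found in it. RPE/choroid is the pigmented epithelium behind the neural retina together with the vascular bed beneath it. Total RNA, depleted of ribosomal RNA, was sequenced from 3 young mice labelled 1 to 2 months old and 3 aged mice. The titles give the aged mice as 20 to 24 months old and the time label as 22 to 24 months. All mice were untreated, male by their labels and of the inbred strain C57BL/6J, and 2 eyes were used for a sample. Both sexes and an older young group are given in the study's methods, so the sex of the mice and the exact age of the young mice are uncertain.

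Chemokines are small secreted proteins that direct the movement of leukocytes through G protein-coupled receptors. CXC and CX3C chemokines are named for the spacing of their first cysteines. CXC chemokines that carry an ELR triplet, such as Cxcl1 and Cxcl5, draw neutrophils, whereas Cxcl9 and Cxcl10 are induced by interferon and draw T and NK cells. Cxcl12 is a homeostatic chemokine made by stromal cells, and Cxcl13 directs B cells into follicles. Cxcl16 and Cx3cl1 are made as membrane-bound proteins that can be shed, and Cx3cl1 is a ligand of microglia and macrophages in the eye.

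The values are those the authors deposited from their DESeq2 comparison. A gene has a baseMean, which is its mean level in normalized counts over the 6 libraries, a log2 fold change, the standard error (SE) of that change and an adjusted p. Values per mouse were not analysed here, so the spread between mice enters only through the SE, whether the groups overlap cannot be said, and the depth of a library is unknown. The sign was set so that a positive value is a higher level in aged mice, which rests on how the study counted its changed genes. A gene is said to have risen or fallen where the adjusted p was under 0.05. All 6 RPE markers examined were present, with a baseMean of 69.8 for Best1 and of 43745 for Rpe65, and the rod photoreceptor gene Sag stood at 13165, so RNA of the neural retina was in the libraries too.

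Of the 10 chemokine genes, 8 were tested, and 6 of these differed between aged and young mice, against 21.2% of all 18636 genes tested. Expression rose in aged mice for 5 genes, Cxcl16, Cxcl9, Cxcl1, Cxcl14 and Cx3cl1, against 11.3% of all genes tested. Expression fell for 1 gene, Pf4, against 9.92%. Cxcl5 and Cxcl10 were tested and did not pass the threshold. Cxcl12 had no p-value and Cxcl13 was under the abundance limit of the adjusted p. Over these 8 the log2 fold change had a median of 1.00, beside -0.01 over all genes tested. With a minimum absolute log2 fold change of 1 added, 5 of the 8 passed, against 8.27% of all genes tested. The plot of fold changes shows that the intervals of Cxcl16, Cxcl9 and Cxcl1 lay above 1 and that only the interval of Pf4 lay below 0.

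**Figure D1:**
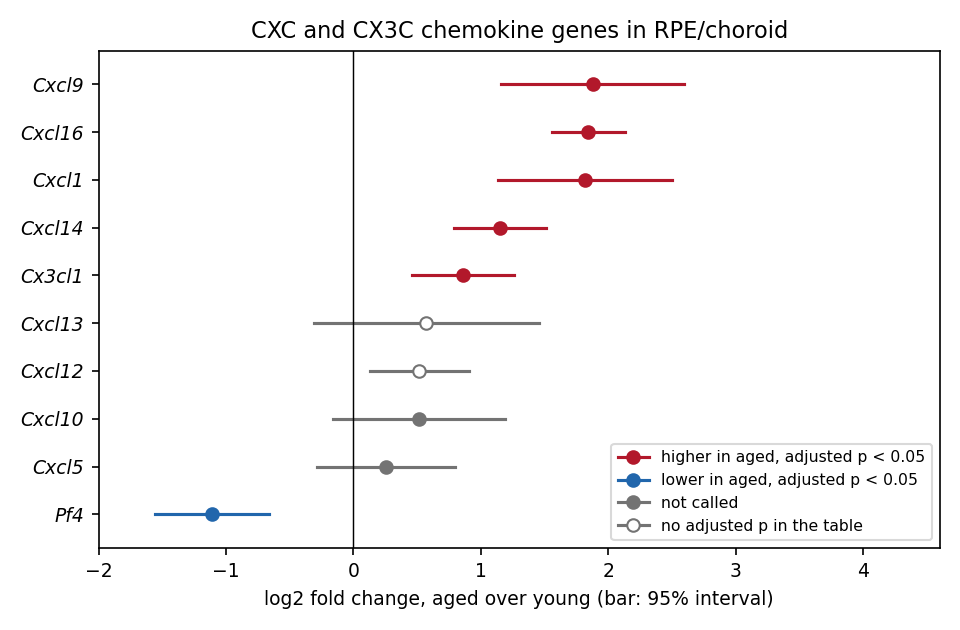
Log2 fold change of each chemokine gene, aged over young, on the horizontal axis, from 3 aged and 3 young mice; points are the deposited estimates and bars their 95% intervals, worked out from the deposited SE. Red and blue mark genes higher and lower in aged mice at an adjusted p under 0.05, grey marks genes not called and open points the 2 genes with no adjusted p. Estimates run from -1.11 for Pf4 to 1.88 for Cxcl9.

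Levels between genes were compared per kilobase of annotated exon, as the mean over all libraries. Cxcl12 was the most abundant, at 565 normalized counts per kilobase, a level above that of 91.2% of the 16427 tested genes with an exon length. Pf4 followed at 255, Cxcl16 at 242 and Cx3cl1 at 183 normalized counts per kilobase. Cxcl14, at 105 normalized counts per kilobase, stood above 55.2% of these 16427 genes. The remaining genes were scarce. Cxcl5 had 31.3, Cxcl1 had 19.5, Cxcl10 had 16.2 and Cxcl9 had 15.3 normalized counts per kilobase. Cxcl13 was lowest at 3.76, which was 150-fold below Cxcl12. The levels of Pf4 and Cxcl16, and those of Cxcl10 and Cxcl9, lay close together, and without values per mouse their order cannot be told from their spread. Cxcl5 and Cxcl1 changed places when the longest coding transcript was used as the length.

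The mean of each age group was worked out from baseMean and fold change. In young mice Pf4 came next after Cxcl12, at 349 normalized counts per kilobase, followed by Cx3cl1 at 130 and Cxcl16 at 105. In aged mice Cxcl16 came next after Cxcl12, at 378 normalized counts per kilobase, followed by Cx3cl1 at 235 and Pf4 at 162. Per kilobase, Cxcl9 went from 6.57 in young to 24.1 in aged mice and Cxcl10 from 13.3 to 19.0, with no error for either level.

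**Figure D2:**
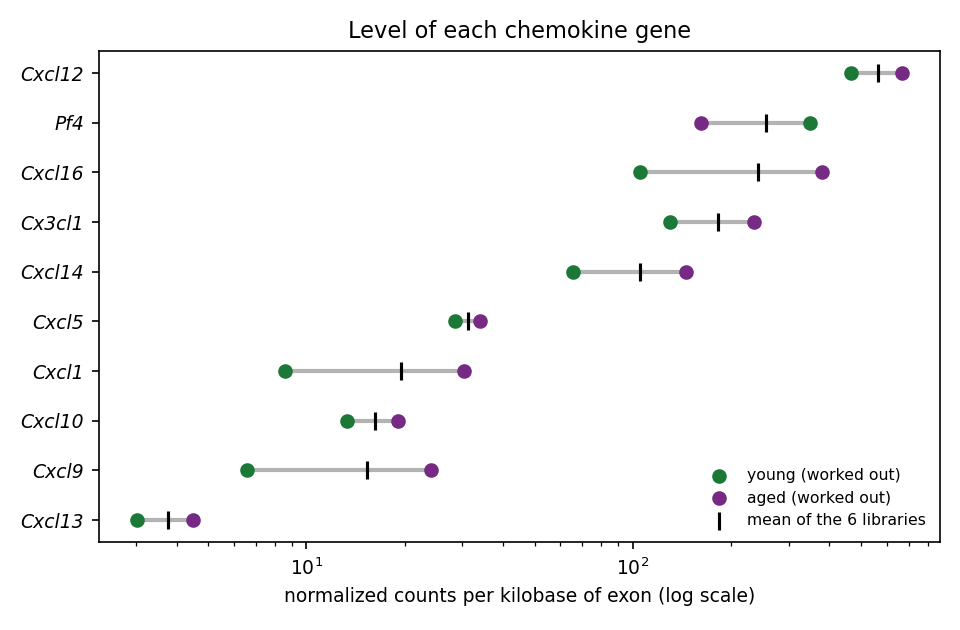
Level of each chemokine gene in normalized counts per kilobase of exon, on a log axis; green and purple points are the means of 3 young and 3 aged mice worked out from the deposited mean and fold change, and black ticks are the deposited mean of the 6 libraries. No error is drawn because the table gives none for a level. Pf4 is the single gene whose aged value lies to the left of its young value.

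Cxcl16 had the smallest adjusted p of the 10 genes. It is a transmembrane chemokine that also acts as a scavenger receptor for oxidized lipoprotein, and lies on chromosome 11 at 70453983 to 70459984 (GRCm38, minus strand). Its baseMean was 731 normalized counts, with worked-out means of 319 in young and 1143 in aged mice. The log2 fold change was 1.84 (adjusted p 8.95e-34, SE 0.15), a 3.59-fold higher level with a 95% interval from 2.94 to 4.38. It ranked 85 of 18636 genes by p-value. The gene Zmynd15, on the opposite strand, overlaps Cxcl16 by 552 bases and also rose, by 1.11 on the log2 scale (SE 0.25). The libraries were stranded, but whether strand was used in the counting is not given in the sources used here.

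Cx3cl1, also called fractalkine, is the sole CX3C chemokine. The gene lies on chromosome 8 at 94772009 to 94782427. Its baseMean of 717 was close to that of Cxcl16, but the change was smaller, with a log2 fold change of 0.86 (adjusted p 0.000367, SE 0.20). This was a 1.81-fold higher level in aged mice, with a 95% interval from 1.37 to 2.39. The change of Cx3cl1 was under the fold-change minimum of 1.

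Among the interferon-inducible members, Cxcl9 rose and Cxcl10 did not pass the threshold. The genes lie 18559 bases apart on chromosome 5, Cxcl9 at 92321347 to 92328079 and Cxcl10 at 92346638 to 92348889. Cxcl9 stood at a baseMean of 46.3, with a log2 fold change of 1.88 (adjusted p 6.54e-06, SE 0.37), a 3.67-fold higher level with a 95% interval from 2.23 to 6.03. Cxcl10, at a baseMean of 36.4, had a log2 fold change of 0.52 (adjusted p 0.299, SE 0.34). Its 95% interval, -0.16 to 1.19 on the log2 scale, includes a 2-fold rise. The intervals of both genes overlap, and the difference between their changes was not tested. Cxcl10 lies wholly within the body of Art3, which is on the opposite strand and had a log2 fold change of 0.09 (SE 0.16).

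Of the ELR chemokines, Cxcl1 rose and Cxcl5 did not pass the threshold. Cxcl1, the mouse chemokine also known as KC, lies on chromosome 5 at 90891241 to 90893115. At a baseMean of 36.5 it had a log2 fold change of 1.82 (adjusted p 3.73e-06, SE 0.35). The level in aged mice was 3.52-fold higher, with a 95% interval from 2.20 to 5.64. Cxcl5, on chromosome 5 at 90759360 to 90761624, was more abundant, at a baseMean of 58.3, with a log2 fold change of 0.26 (adjusted p 0.564, SE 0.28). Its 95% interval of -0.29 to 0.80 ended below the interval of Cxcl1, which began at 1.14, and the difference between the changes was not tested.

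Cxcl14, an orphan chemokine of epithelia on chromosome 13 at 56288643 to 56296551, rose. It had a baseMean of 193, with worked-out means of 120 in young and 265 in aged mice. The log2 fold change was 1.15 (adjusted p 1.78e-08, SE 0.18), a 2.21-fold higher level with a 95% interval from 1.72 to 2.85.

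Promoter sequences are shown for the 3 members whose windows held a motif match, Cxcl1, Cxcl10 and Cxcl14, and for Cxcl9, the neighbour of Cxcl10, whose window held none. They are the 250 bases before the start site from RefSeq (GRCm38.p6), written 5′ to 3′ on the strand of the gene. Windows were found for 8 of the 10 members. Capitals mark matches to 3 motifs searched on both strands: TTCNNNGAA, the interferon-stimulated response element (ISRE) core, which is TTTC, any 2 bases and TTTC, and the NF-kappaB consensus. The windows searched ran from 250 bases before to 50 bases after the start, and 8.3%, 3.44% and 8.46% of all 32851 promoter windows hold these motifs.
Cxcl1, chr5:90890995-90891244, plus strand: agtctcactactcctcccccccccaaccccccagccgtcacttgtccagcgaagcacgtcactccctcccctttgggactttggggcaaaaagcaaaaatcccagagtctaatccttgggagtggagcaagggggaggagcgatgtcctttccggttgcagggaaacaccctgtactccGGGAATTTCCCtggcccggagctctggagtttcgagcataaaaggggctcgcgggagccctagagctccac
Cxcl9, chr5:92328080-92328329, minus strand: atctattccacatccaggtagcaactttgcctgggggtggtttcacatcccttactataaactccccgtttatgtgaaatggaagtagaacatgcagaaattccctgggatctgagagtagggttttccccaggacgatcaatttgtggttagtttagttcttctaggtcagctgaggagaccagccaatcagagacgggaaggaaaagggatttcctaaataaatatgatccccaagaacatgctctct
Cxcl10, chr5:92348890-92349139, minus strand: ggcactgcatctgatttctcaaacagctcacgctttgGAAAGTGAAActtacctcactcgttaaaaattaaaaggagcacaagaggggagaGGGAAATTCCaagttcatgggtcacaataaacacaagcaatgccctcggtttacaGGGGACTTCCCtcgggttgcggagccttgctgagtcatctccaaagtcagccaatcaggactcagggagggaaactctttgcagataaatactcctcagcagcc
Cxcl14, chr13:56296552-56296801, minus strand: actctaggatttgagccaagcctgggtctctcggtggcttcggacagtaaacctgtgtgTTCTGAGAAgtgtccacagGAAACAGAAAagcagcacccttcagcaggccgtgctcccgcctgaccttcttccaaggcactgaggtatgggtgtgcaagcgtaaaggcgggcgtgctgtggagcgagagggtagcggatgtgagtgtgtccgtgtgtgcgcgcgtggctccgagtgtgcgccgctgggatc

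With the start site at 0, Cxcl1 held 1 place that matched the NF-kappaB consensus, at -71 to -61, made of 2 overlapping matches. Cxcl10 held such places at -159 to -150 and at -104 to -94 and a match to the ISRE core at -213 to -204. Cxcl14 held a match to TTCNNNGAA at -191 to -183 and to the ISRE core at -172 to -163. The windows of Cxcl9, Cxcl12, Cxcl13, Pf4 and Cx3cl1 held no match. The genes with a match thus include Cxcl1 and Cxcl14, which rose, and Cxcl10, which did not pass the threshold. Cxcl9 and Cx3cl1 rose and have no match in this window.

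Pf4 was the 1 member that fell. It encodes platelet factor 4, a chemokine that is stored in platelet granules and is also made by some tissue macrophages. The gene lies on chromosome 5 at 90772435 to 90773383, 10811 bases from Cxcl5. Its baseMean was 184, with worked-out means of 251 in young and 116 in aged mice. The log2 fold change was -1.11 (adjusted p 1.96e-05, SE 0.23), which left an aged level of 0.463 times the young one, with a 95% interval from 0.341 to 0.631.

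Platelet and macrophage markers were set beside Pf4. Of 10 platelet markers, 7 were tested and 0 differed by DESeq2, against 21.2% of all genes tested. Of these 7 markers, 0 also passed at an unadjusted p under 0.05. Their log2 fold changes ran from -0.62 for Gp1bb to 0.76 for Treml1, and their summed worked-out level was 328 normalized counts in young and 330 in aged mice. Ppbp, a platelet chemokine whose gene lies 2372 bases from Pf4, had 0.26 (adjusted p 0.631, SE 0.33). Of 11 macrophage markers, 6 rose and 4 fell, beside 11.3% higher and 9.92% lower of all genes tested. The summed worked-out level of the 11 markers was 11580 normalized counts in young and 19280 in aged mice. Those that rose include Cd68, at 3.37 (SE 0.14), and Adgre1, the gene of F4/80, at 2.12 (SE 0.16). Those that fell are Cd163 at -2.34 (SE 0.24), Lyve1 at -2.01 (SE 0.27), F13a1 at -1.64 (SE 0.14) and Folr2 at -1.40 (SE 0.29), of which F13a1 is also known from platelets. Aif1, Fcgr1, Mertk and Csf1r rose too, by 1.41 (SE 0.24), 1.21 (SE 0.24), 0.66 (SE 0.15) and 0.37 (SE 0.13), and Csf1r lost the call after centring. Mrc1, which like Cd163 and Lyve1 is known from resident macrophages, had 0.15 (adjusted p 0.512, SE 0.14). Of the 11 macrophage markers, 7 had the opposite sign to Pf4, and the part of any cell type in the fall of Pf4 was not tested. Fewer cells of a type and less RNA per cell cannot be told apart in a bulk sample, for this or any other gene here.

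**Figure D3:**
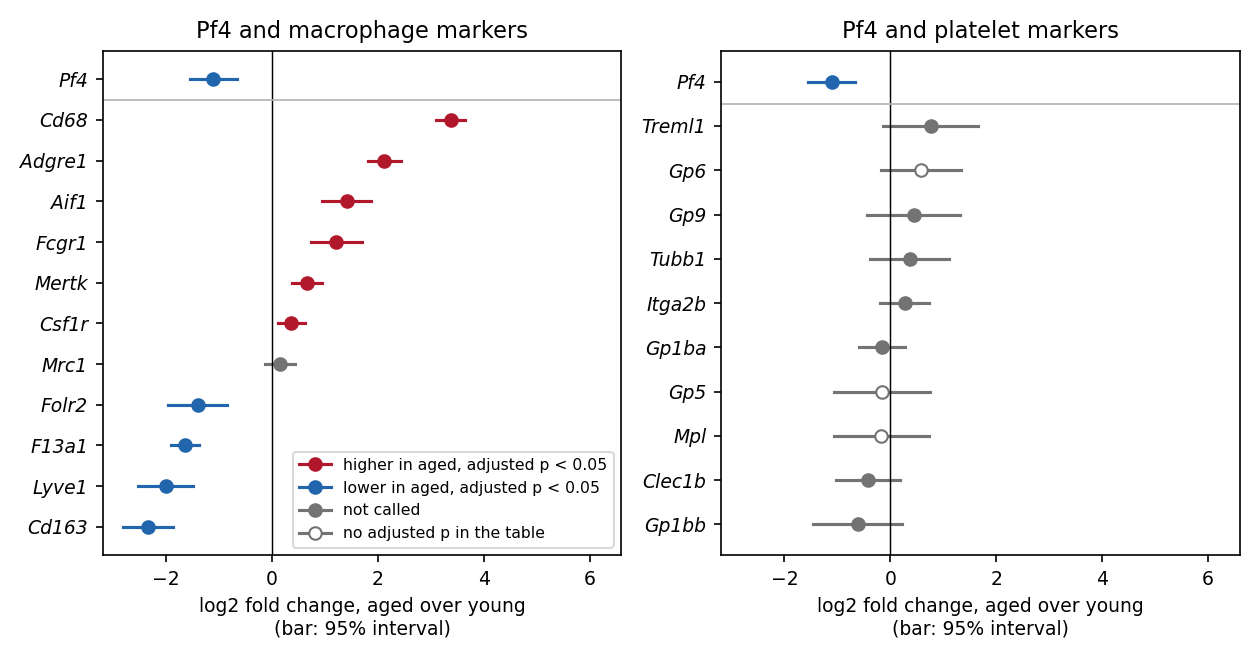
Log2 fold changes, aged over young, of Pf4 and of macrophage markers (left) and platelet markers (right), from 3 aged and 3 young mice, with 95% intervals as bars and the colours of the plot of the chemokine genes. The 4 macrophage markers that fell, Cd163, Lyve1, F13a1 and Folr2, lie left of 0, 7 lie right of it, and every platelet marker's interval includes 0.

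Cxcl12 and Cxcl13 have no adjusted p. Cxcl12, on chromosome 6 at 117168535 to 117181367, stood at a baseMean of 4619, with a log2 fold change of 0.52 (SE 0.20), with a 95% interval from 0.13 to 0.91. The p-value is missing for 160 genes of the table, and why it is missing for Cxcl12 was not tested. With the p-value filled in from the fold change and its SE, the adjusted p was 0.0454, so a call for Cxcl12 would depend on that step. Cxcl13, on chromosome 5 at 95956951 to 95961068, was near the detection limit, at a baseMean of 4.32. Its log2 fold change was 0.57 (SE 0.45), and the 95% interval of -0.31 to 1.45 was too wide to tell a rise from a fall.

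At like abundance the SE differed between members. The SE of a gene was placed among tested genes with a baseMean within a factor of 1.25. Cx3cl1 and Cxcl16 have nearly the same baseMean, but the SE of Cx3cl1, 0.20, was above that of 92.4% of 1862 such genes, and the SE of Cxcl16, 0.15, above that of 41.9% of 1853. Cxcl12 stood at 92.3% of 429 genes and Cxcl9 at 81.6% of 934. Cxcl14 and Cxcl5 were on the low side, at 16.0% and 18.3%. The plot of SE against abundance shows Cx3cl1 and Cxcl12 near the upper edge of the band of tested genes.

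**Figure D4:**
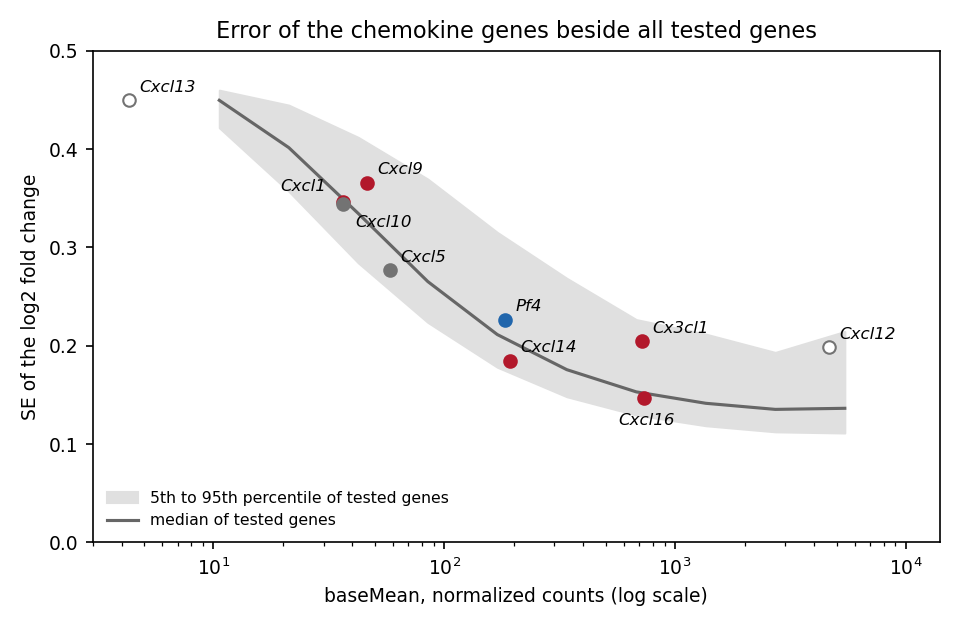
SE of the log2 fold change against baseMean (log axis) for the 10 chemokine genes, with the median (line) and the 5th to 95th percentiles (band) of all tested genes in abundance bins; colours as in the plot of the chemokine genes. Cx3cl1 and Cxcl12 lie near the top of the band, at an SE of 0.20 for both, and Cxcl16 lies close to the line, at 0.15.

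The receptors of these chemokines were compared next. Of the 10 receptor genes listed, all 10 were tested, 5 rose and 1 fell, beside 11.3% higher and 9.92% lower of all genes tested. The share that fell is thus near the background. The median log2 fold change of the receptors was 0.74, beside -0.01 over all genes tested. Cxcr6, the receptor of Cxcl16 on T cells, rose with its ligand, by 1.22 on the log2 scale (adjusted p 0.00304, SE 0.34). Cxcr3, the receptor of Cxcl9 and Cxcl10, rose by 1.70 (adjusted p 5.89e-05, SE 0.37). Cxcr4, the signalling receptor of Cxcl12, rose by 1.68 (adjusted p 2.11e-16, SE 0.19), whereas the scavenging receptor Ackr3, which also binds Cxcl12, fell by 0.46 (adjusted p 0.0169, SE 0.15). Xcr1, the receptor of Xcl1 on dendritic cells, rose by 0.81 (adjusted p 0.0468, SE 0.31), close to the threshold, and lost the call in 4 alternatives.

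Cxcr1 had the largest log2 fold change of the 10 receptors, 2.83 (adjusted p 6.29e-09, SE 0.44), at a baseMean of 17.3. Cxcr2, the main receptor of Cxcl1 and Cxcl5 in the mouse, had 0.66 (adjusted p 0.319, SE 0.45). Cx3cr1, the receptor of Cx3cl1, had 0.44 (adjusted p 0.0816, SE 0.19). Cxcr5, the receptor of Cxcl13, had 0.03 (adjusted p 0.973, SE 0.40), a sign that turned after centring. Ackr1, which binds many inflammatory chemokines, had -0.65 (adjusted p 0.198, SE 0.36), and only 77.0% of its 31-base words occur in no other gene. Ackr1 and Ackr3 stand in the table under the older symbols Darc and Cxcr7.

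**Figure D5:**
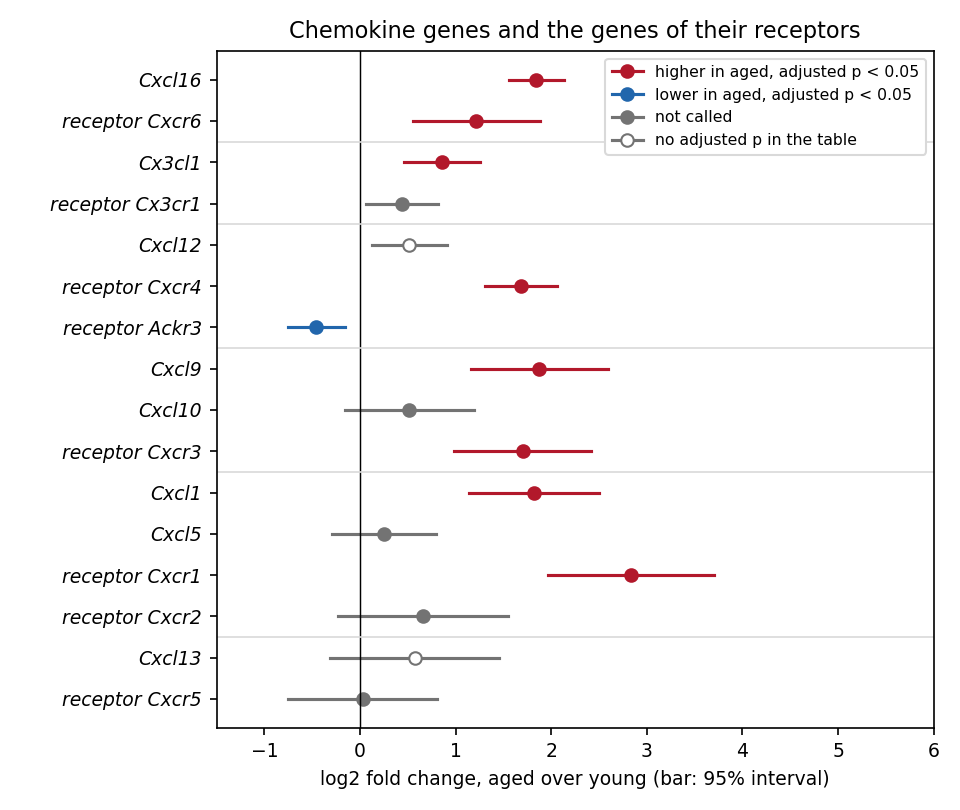
Log2 fold changes, aged over young, of chemokine genes and of their receptors (named as such), grouped by ligand and divided by lines, from 3 aged and 3 young mice; bars are 95% intervals and colours are as in the plot of the chemokine genes. Cxcl16 and Cxcr6 rose together, Cxcr4 rose by 1.68 and Ackr3 fell by 0.46.

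Markers of leukocytes that carry these receptors were set beside them. Of all genes tested, 11.3% rose and 9.92% fell, and counts near these shares are not a result about a list. Of 10 T and NK cell markers, 9 were tested and 7 rose, and their summed worked-out level was 154 normalized counts in young and 685 in aged mice. Cd4 made up the largest part of that difference, with worked-out means of 76.4 in young and 407 in aged mice. Cd3e, at 1.09 (adjusted p 0.0713, SE 0.46), was not called. The NK cell markers Klrb1c and Ncr1 were not called either. Klrb1c had 0.78 (adjusted p 0.216, SE 0.45) and Ncr1 was under the abundance limit. Of 7 neutrophil markers, 4 were tested and 3 rose, S100a8, S100a9 and Csf3r, with a summed level of 160 in young and 522 in aged mice. Retnlg had 0.56 (adjusted p 0.351, SE 0.41) and did not pass the threshold. Ly6g and Elane were under the abundance limit, at a baseMean of 0.296 and 0.348, and Mpo was listed at 0. Of 5 B cell markers, 4 were tested and 0 differed by DESeq2, also at an unadjusted p under 0.05, with a summed level of 169 in young and 204 in aged mice. Of 5 dendritic cell markers, all 5 were tested and 1 rose, Flt3, with a list median of -0.04 on the log2 scale and a summed level of 748 in young and 744 in aged mice. The part of these cells in the changes of Cxcl9, Cxcl1 and the receptors was not tested. For cells that can make chemokines, the summed level of 8 endothelial markers was 23210 in young and 25560 in aged mice, with 1 higher and 1 lower, and that of 5 fibroblast markers was 150200 and 95870, with 1 higher and 2 lower. The markers that fell were Col1a2, with worked-out means of 100280 in young and 28845 in aged mice, and Dpt, a scarcer gene, which fell by 1.82 on the log2 scale (SE 0.27). Dcn rose by 0.51 on the log2 scale (SE 0.13) and Lum and Pdgfra had 0.26 (SE 0.14) and 0.21 (SE 0.14).

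Other chemokines of these families, with the related Xcl1, were compared as a list. Of 7 further ligands, 4 were tested and 1 differed, a share near the 21.2% of all genes tested and so not a result about the list. Xcl1, made by T and NK cells, rose by 1.88 on the log2 scale (adjusted p 0.000572, SE 0.46) at a baseMean of 7.16. Cxcl2, a close relative of Cxcl1, had 0.81 (adjusted p 0.201, SE 0.45), and Cxcl11, which neighbours Cxcl10, had 0.22 (adjusted p 0.710, SE 0.34). Cxcl3 (baseMean 0.154), Cxcl15 (1.24) and Cxcl17 (3.77) were under the abundance limit. For each of the 10 members, at least 99.1% of its 31-base words occur in no other gene.

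Proteases that release or trim chemokines were compared as a list. Of 8 genes, 7 were tested, 2 rose and 1 fell, beside 11.3% higher and 9.92% lower of all genes tested. The share that fell is near the background. Adam10 and Adam17, the sheddases of Cx3cl1 and Cxcl16, had log2 fold changes of 0.26 (adjusted p 0.104, SE 0.12) and 0.24 (adjusted p 0.155, SE 0.12). Rhbdf2, which brings Adam17 to the cell surface in leukocytes, rose by 0.83 (SE 0.18), and its relative Rhbdf1 had -0.21 (SE 0.16). Dpp4, which trims the amino terminus of Cxcl10 and Cxcl12, fell by 0.93 (adjusted p 0.000557, SE 0.23). Of the matrix metalloproteinases, Mmp12, which cuts ELR chemokines, rose by 4.97 (SE 0.18), Mmp9 had -0.12 (SE 0.35) and Mmp2, with no p-value, had -0.46 (SE 0.14). With a Wald p filled in as for Cxcl12, the adjusted p of Mmp2 was 0.00755, so a call for Mmp2 would depend on that step.

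Inducers of these chemokines were compared in 3 lists. Of all genes tested, 11.3% rose and 9.92% fell, with a median log2 fold change of -0.01. Of 11 genes of interferon signalling, 10 were tested and 5 rose, among them Jak1 by 0.46 (SE 0.11), Stat2 by 0.43 (SE 0.17), Ifnar2 by 0.40 (SE 0.12) and Ifngr2 by 0.38 (SE 0.13). After centring, 3 of the 5 kept the call. The untested gene was Ifng, the inducer of Cxcl9, with a log2 fold change of 0.85 (SE 0.40) at a baseMean of 2.12. Of 14 genes of the NF-kappaB list, 13 were tested and 6 rose. These were the cytokines Tnf (1.60, SE 0.36), Il1b (1.43, SE 0.33) and Il1a (1.11, SE 0.36), the receptor Il17ra (1.41, SE 0.17) and the subunits Relb (0.59, SE 0.18) and Nfkb2 (0.44, SE 0.16), of which Nfkb2 lost the call after centring (adjusted p 0.0818). Il17a was listed at 0. Of 6 genes of the lymphotoxin list, which acts on Cxcl13, 5 were tested and 2 rose, Ltb by 1.42 (SE 0.33) and Map3k14 by 0.57 (SE 0.18). The others were Tnfsf13b at 0.91 (SE 0.41), Tnfsf14 at 0.86 (SE 0.45), Ltbr at 0.18 (SE 0.15) and Lta, under the abundance limit at a baseMean of 0.939. None of these lists had a gene that fell past the threshold. The medians of the 3 lists were 0.35, 0.39 and 0.86.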

How the data were processed

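RNA was measured in RPE/choroid of 3 young and 3 aged mice. Per the study's methods, the authors used BBDuk for trimming, STAR for mapping to the Ensembl GRCm38 transcripts, Sailfish for abundances, a total count scaling and DESeq2 for the comparison of ages. The single deposited file holds that comparison and 0 columns of values per sample, so its values, the authors' own, are described here and no test per gene was rerun. The deposited baseMean is a normalized signal, the mean of 6 libraries. Fold changes and SEs were deposited on the log2 scale, with the Wald score, their ratio, beside them. The deposited p-value and adjusted p-value come from the authors' DESeq2 run. The recomputed Wald p differed from the deposited one by at most 0.449%. Which age is the numerator of the fold change is not written in the file. The split of changed genes in the study points to young over aged, and signs were reversed accordingly, so every direction depends on this reading. The largest SE, 0.46, and falling SEs at the lowest counts are what shrunken fold changes give, which neither file nor methods state. Changes of scarce genes may then be understated, and so may the differences between worked-out group means.

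A p-value was missing for 160 genes, 7885 had a p-value but no adjusted p (baseMean of at most 7.07), 7243 were at 0, and 18636 were tested. Intervals are the estimate and the 95% normal quantile times the SE. Exon lengths and positions are from GENCODE M21 (GRCm38), which is newer than the authors' annotation, and were found for 16427 of the tested genes. Of the listed symbols, 3 were matched through older names. The members, gene lists and alternatives were chosen with earlier results of these data known. Genes named are all members, every gene of lists of 10 or fewer, the called genes of longer lists and the tested genes within 250 kb of a member. Of the marker lists, genes were picked for naming after their values were seen. The Benjamini-Hochberg and Wald steps (python 3.11.15, scipy 1.17.1) were tested on simulated data. Alternatives were an adjusted p under 0.01, a minimum absolute log2 fold change of 1, no filter on low genes, a baseMean of at least 10, Wald p-values for genes without one, centring on the median of genes with a baseMean of at least 100, and another gene length. Protein sequences were not used here. Some genes of the lists are counted but not reported by name here.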

Additional observations from a re-analysis of the deposited data

How the results depend on the processing

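No paired analysis was possible because only summary values per gene were analysed. Fits without 1 replicate or with another normalization (TMM) were not run for lack of counts. The number of chemokine genes that differ was 6, and it lay between 5 and 7 under the 6 alternatives tried. Cx3cl1, at 0.857, lost its call under a minimum absolute log2 fold change of 1, which is stricter by construction, and Cxcl12, at 0.516, gained one (adjusted p 0.0454) when p-values were filled in. The other 8 members kept their direction and their side of the threshold wherever a value could be had. Cxcl13 and Cxcl12 could not enter with a baseMean of at least 10, the first for its level and the second for its missing p-value. In order of level, Cxcl1 became 6 and Cxcl5 7 with the longest coding transcript as the length, a choice made after seeing the data.

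Over all genes, 2520 differed at an adjusted p under 0.01 and 1542 with the fold-change minimum, both stricter by construction, against 3949. Centring subtracts 0.06 from each log2 fold change and gave 1655 higher and 2289 lower calls, where without it 2100 were higher and 1849 lower. Of the further ligands, 0 were called with a baseMean of at least 10, since Xcl1 then leaves the test. The fold-change minimum left 1 protease, 1 lymphotoxin gene and 0 interferon genes. Of the interferon genes, 3 were left at an adjusted p under 0.01 and 3 after centring. Among other named genes, centring turned the sign of Cxcr5 to -0.0368, of the mural cell marker Pdgfrb to -0.00147 and of the retinal neuron marker Calb2 to -0.0625. Xcr1 lost its call at an adjusted p under 0.01, with the fold-change minimum, with no filter on low genes and after centring. At a baseMean near 36, as for Cxcl1 and Cxcl10, the SE was 0.35 and 0.34. The change seen for Cxcl10 did not pass the threshold at this SE, and the power to detect such a change was not worked out.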

Other observations

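The chemokine genes of chromosome 5 lie in groups, and not every gene of a group passed the threshold. Differences between the changes of neighbours were not tested. In the first group, Cxcl5, Ppbp, Pf4, Cxcl1 and Cxcl2 were tested. Pf4 fell by 1.11 on the log2 scale and Cxcl1, 117858 bases away, rose by 1.82, while Ppbp, which lies between Cxcl5 and Pf4, had 0.26 (SE 0.33). In the second group, Cxcl9 rose by 1.88, whereas Cxcl10 and Cxcl11 had 0.52 and 0.22. Of 14 other genes tested within 250 kb of a member on chromosome 5, 3 rose and 1 fell, and around all members 10 of 58 rose and 5 fell, beside 11.3% higher and 9.92% lower of all genes tested. Shares near the background are not a result about these loci. Those that rose, Scarb2 (0.54), Naaa (0.45) and Uso1 (0.39), all lie around Cxcl9 and Cxcl10. The gene that fell, Ereg, which encodes the growth factor epiregulin, had -1.12 (SE 0.43) and lies 181507 bases from Cxcl1.

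Around Cxcl16, 4 of 28 tested genes rose and 3 fell, and those that rose were Zmynd15 (1.11), Arrb2 (0.77), which encodes an arrestin that uncouples chemokine receptors, Mink1 (0.55) and Kif1c (0.45). Those that fell were Chrne (-1.34, SE 0.46), 0610010K14Rik (-0.64, SE 0.20) and Rnf167 (-0.36, SE 0.13). Around Cx3cl1, 1 of 12 rose, Nlrc5, a regulator of MHC class I genes, by 1.66 (SE 0.19), and 1 fell, Pllp, by 0.85 (SE 0.21). The CC chemokine genes Ccl22 and Ccl17, 20310 and 28026 bases from Cx3cl1, were under the abundance limit, with log2 fold changes of 1.28 (SE 0.45) and 0.35 (SE 0.45). Around Cxcl14, 2 of 4 rose, Tifab by 1.16 (SE 0.21) and Fbxl21 by 0.70 (SE 0.25). No tested gene lay within 250 kb of Cxcl12.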
